A study of Mus musculus with 2 samples.

Results

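The Schlafen family was followed across the 2 libraries of a study of mechanical load on macrophages, as the 7 genes Slfn1, Slfn2, Slfn3, Slfn4, Slfn5, Slfn8 and Slfn9 among the 55414 genes of the deposited gene table. The members were found by gene symbol, each matched 1 row, and the rule used no measured value. The members were, however, chosen with earlier results of these data known. The cells are labelled RAW246.7, read here as a misspelt name of a known line of mouse macrophages. The stretched group was kept under 20% elongation strain for 24 h and the control group under a loading that the labels call normal, also for 24 h, with no strain value given. Each group had 1 library, and the labels do not say whether the strain was cyclic or static. There were no replicates, so the spread between cultures is unknown and no difference below is a test of the treatment.

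Schlafen proteins share an N-terminal core with the fold of a nuclease, and several members have been tied to cleavage or protection of transfer RNA. The mouse genes are known as targets of type I interferon and of Toll-like receptor ligands in macrophages. They fall into short, intermediate and long classes, and only the long class carries a C-terminal region that resembles a helicase. The first members were described as inhibitors of T cell growth, and the family name is the German verb for sleeping.

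The 7 genes lie in a single cluster on chromosome 11, which spans 264 kb between 82842175 and 83105980 in the deposited coordinates (GRCm39). On the plus strand are 5 members, in the order Slfn5, Slfn2, Slfn1, Slfn4 and Slfn3, and on the minus strand are 2, Slfn9 and Slfn8, which lie between Slfn5 and Slfn2. All 7 are annotated as protein-coding. In the GENCODE M21 annotation, the transcript with the most counts had a coding length of 1011 bases for Slfn1 and 1134 for Slfn2, the short class. That length was 1551 bases for Slfn3 and 1806 for Slfn4, the intermediate class. It was 2652 bases for Slfn5 and 2730 for both Slfn8 and Slfn9, the long class.

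Promoter sequences are shown for Slfn5, the member with the largest difference, for Slfn8 and Slfn9, which hold the same motif with smaller differences, and for Slfn2 and Slfn4, the most abundant members. Each is the RefSeq window from 250 bases before to 50 bases after a gene start (build GRCm38.p6, so these coordinates differ from those of the deposited tables). Capitals mark, on either strand, the core of the interferon-stimulated response element (GAAA, any 2 bases, GAAA; in Slfn5, Slfn8 and Slfn9) or that of the ETS-IRF composite element (GGAA, any 2 bases, GAAA; in Slfn2). The windows are chr11:82951852-82952151 on the plus strand for Slfn5, chr11:83020761-83021060 and chr11:82991781-82992080 on the minus strand for Slfn8 and Slfn9, and chr11:83064862-83065161 and chr11:83174936-83175235 on the plus strand for Slfn2 and Slfn4, which has no match.
Slfn5: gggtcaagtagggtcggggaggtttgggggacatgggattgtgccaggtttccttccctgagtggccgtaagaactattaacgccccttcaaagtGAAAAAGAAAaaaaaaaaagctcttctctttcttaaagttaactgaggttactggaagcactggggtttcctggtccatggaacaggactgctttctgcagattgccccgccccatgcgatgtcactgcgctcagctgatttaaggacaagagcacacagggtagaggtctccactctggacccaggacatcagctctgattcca
Slfn8: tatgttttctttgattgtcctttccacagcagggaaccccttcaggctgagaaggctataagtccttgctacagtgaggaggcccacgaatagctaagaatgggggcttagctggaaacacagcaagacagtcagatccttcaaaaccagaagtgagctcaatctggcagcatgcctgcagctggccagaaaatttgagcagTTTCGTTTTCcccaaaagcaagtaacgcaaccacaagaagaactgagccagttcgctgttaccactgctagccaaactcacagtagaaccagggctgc
Slfn9: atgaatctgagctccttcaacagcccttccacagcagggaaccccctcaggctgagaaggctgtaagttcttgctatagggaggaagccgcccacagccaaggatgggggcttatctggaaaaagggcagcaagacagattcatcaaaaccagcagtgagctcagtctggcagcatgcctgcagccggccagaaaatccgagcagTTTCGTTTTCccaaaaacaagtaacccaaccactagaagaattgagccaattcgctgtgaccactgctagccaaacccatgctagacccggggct
Slfn2: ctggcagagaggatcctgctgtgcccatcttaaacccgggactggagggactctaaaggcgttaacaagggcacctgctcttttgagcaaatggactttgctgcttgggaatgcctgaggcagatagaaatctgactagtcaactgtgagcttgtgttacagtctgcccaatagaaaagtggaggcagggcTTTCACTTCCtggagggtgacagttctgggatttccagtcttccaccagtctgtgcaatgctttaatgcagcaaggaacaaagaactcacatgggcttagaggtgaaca
Slfn4: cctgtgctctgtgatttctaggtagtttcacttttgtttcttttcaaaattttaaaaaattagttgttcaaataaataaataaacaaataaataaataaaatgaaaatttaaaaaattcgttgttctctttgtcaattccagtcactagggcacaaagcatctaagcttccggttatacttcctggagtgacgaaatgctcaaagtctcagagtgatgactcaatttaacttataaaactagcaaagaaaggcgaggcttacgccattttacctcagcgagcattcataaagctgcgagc

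The interferon-stimulated core was found in windows of 3 of the 7 members, Slfn5, Slfn8 and Slfn9, all of the long class, against 3.99% of the 27025 genes in the table (3.44% of its 32851 windows of the same length). It began 155 bases before the start of Slfn5 on the gene's own strand, where a run of A follows it. It began 48 bases before the start of Slfn8 and 45 before that of Slfn9, with the same letters TTTCGTTTTC on the opposite strand. The Slfn8 and Slfn9 windows were alike over their length, with 250 identical bases of 289 aligned (86.5%). A second listed start of Slfn8 holds the same match. The gamma-activated site (TTC, any 3 bases, GAA; both strands) was in 0 of the 7 members, against 9.55% of genes (8.30% of windows). The composite core, which was added after the member windows had been read, was in Slfn2 alone of the members, against 3.16% of genes (2.72% of windows). The windows of Slfn1, Slfn3 and Slfn4 held none of the 3 motifs. These matches describe letters in these windows and do not show binding.

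The stretched library held 13391645 estimated counts and the control library 14769100. Levels are given as FPKM, which divides fragments by transcript length and by depth and so can be compared between genes. Differences are log2 ratios of estimated counts per scaled library total, stretched over control. Each has a 95% interval that covers counting error only, with the estimated counts treated as counted fragments. Error in the estimates themselves is not covered. The size rule used below asks for 20 or more counts in the 2 libraries together, a ratio of 2-fold or more, and a counting interval clear of a ratio of 1. Of the 12772 genes with 20 or more counts, 5.06% met it, 3.12% on the higher side and 1.94% on the lower side. All 7 macrophage marker genes had at least 655 counts in each library and 0 met the rule. They summed to 87394 counts (6491 CPM, counts scaled to depth) in stretched and 74122 (5046 CPM) in control. Most of that gap was the lysozyme gene Lyz2, with 43773 counts in stretched and 28385 in control, and the other 6 summed to 43621 counts (3240 CPM) in stretched and 45737 (3114 CPM) in control. Lyz2 was named after its value was seen. The labels also name the synovial membrane as tissue. The 5 synovial fibroblast markers summed to 13 counts in stretched and 17 in control, with Col1a2, Pdgfra and Thy1 at 0 in both. The T cell and B cell markers had at most 7 counts each.

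Slfn5 was the member with the largest difference and the 1 of the 7 that met the size rule, on the higher side, where 3.12% of all genes did; 0 met it on the lower side. In RNA from whole cultures, a difference in the share of cells that express a gene and one in RNA per cell cannot be told apart. Slfn4, Slfn2 and Slfn3 had smaller differences above 0, with intervals that excluded 0, while the intervals of Slfn8 and Slfn9 held 0, and Slfn1 was close to absent. Of the 6 members with at least 20 counts, 5 had a difference above 0, against 49.9% of all genes. Of these 6, 4 had intervals above 0, against 22.9% of all genes, and 0 had intervals below 0, against 21.9%. Those shares are not matched for depth: each of the 6 had at least 348 counts, and genes nearer to 20 counts have wider intervals. The median difference of these 6 was 0.62 on the log2 scale, and that of all 12772 genes was -0.0014. Summed over the 7 genes, the family had 6944 counts in stretched and 4773 in control, or 516 CPM in stretched and 325 CPM in control. That is a log2 difference of 0.67 (0.61 to 0.72), and without Slfn4, the most abundant member, it was 0.51 (0.42 to 0.59).

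**Figure D1:**
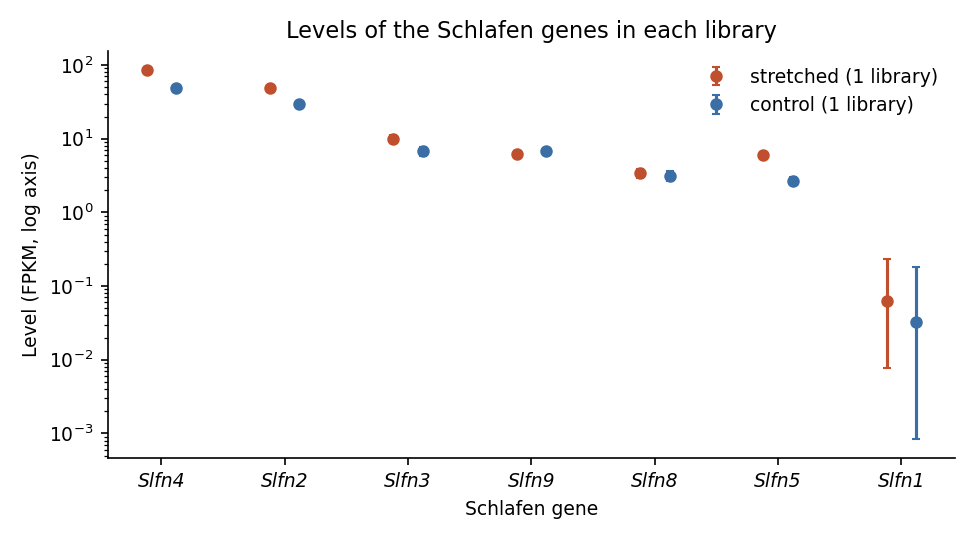
Level of each Schlafen gene in FPKM on a log axis, in the stretched library (left point of each pair) and the control library (right point). Bars are 95% Poisson counting intervals. Slfn4 and Slfn2 are far above the other members, Slfn5 shows the widest gap of the genes with at least 20 counts, and Slfn1 is close to 0 in both libraries.

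Among the short members, Slfn2 was well expressed and Slfn1 was barely detected. Slfn2 (ENSMUSG00000072620, 82955938 to 82961504) is required for T cells and monocytes to keep a quiescent state, and its protein protects transfer RNA from cleavage by angiogenin. It had 1187 counts and 49.1 FPKM in the stretched library, against 797 counts and 29.3 FPKM in control. The log2 difference was 0.70 (0.57 to 0.83), or 1.62-fold, below the size rule. Slfn1 (ENSMUSG00000078763, 83007675 to 83013496), whose forced expression arrests T cell growth, had 2 counts in stretched and 1 in control. Both values are at or under the floor of 3 counts, so no ratio is given, and a difference was not detectable at this depth.

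Among the intermediate members, Slfn4 was the most abundant Schlafen gene of both libraries. Slfn4 (ENSMUSG00000000204, 83066012 to 83081042) is a myeloid gene known to respond to interferon and to change during macrophage differentiation. It had 4322 counts and 85.1 FPKM in stretched, against 2760 counts and 49.0 FPKM in control. Its log2 difference was 0.77 (0.70 to 0.84), or 1.71-fold, and 94.5% of the 12772 genes had a smaller one. It made up 62.2% of the family's counts in stretched (Wilson 95% interval 61.1% to 63.4%) and 57.8% in control (56.4% to 59.2%). Slfn3 (ENSMUSG00000018986, 83082156 to 83105980), known in rat gut for its part in enterocyte differentiation, was the next gene on the chromosome and far lower. It had 276 counts and 10.0 FPKM in stretched, against 208 counts and 6.75 FPKM in control. The log2 difference of Slfn3 was 0.53 (0.27 to 0.80), below the size rule.

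Among the long members, Slfn5 had a larger difference than Slfn8 and Slfn9, though not a higher level than Slfn9. Slfn5 (ENSMUSG00000054404, 82842175 to 82855666) has a human counterpart that acts in the nucleus as a repressor of interferon-stimulated transcription. It had 504 counts and 6.02 FPKM in stretched, against 256 counts and 2.67 FPKM in control. The log2 difference of 1.10 (0.88 to 1.33) is 2.15-fold, and 97.2% of genes had a smaller one. The lower bound of the interval is 1.84-fold, so counting error alone leaves values under 2-fold within it. With 1 added to FPKM before the log2, the difference was 0.93, below the 2-fold limit. The authors' deposited table lists Slfn5 as the only member marked up, with a log2 fold change of 1.10 and an adjusted p of 0.000313. Its adjusted p was 0.0125 for Slfn4 and 0.0525 for Slfn2 in the authors' deposited table, which marks neither. Those p-values were matched by an edgeR exact test with a biological coefficient of variation of 0.1 that is assumed and not measured, so they hold no information on the spread between cultures.

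Slfn8 and Slfn9, close paralogs of the long class, had differences whose counting intervals held 0. Slfn8 (ENSMUSG00000035208, 82892984 to 82911636) had 179 counts and 3.41 FPKM in stretched, against 169 counts and 3.11 FPKM in control. Its log2 difference was 0.21 (-0.10 to 0.52). Slfn9 (ENSMUSG00000069793, 82869216 to 82882656) had 474 counts and 6.14 FPKM in stretched, against 582 counts and 6.71 FPKM in control. The difference of -0.17 (-0.35 to 0.01) was the only one below 0 among the 6 genes. Slfn9 took 6.83% of the family's counts in stretched (6.26% to 7.44%) and 12.2% in control (11.3% to 13.2%), while Slfn5 took 7.26% in stretched (6.67% to 7.89%) and 5.36% in control (4.76% to 6.04%). A share also depends on the other members, whose sum was higher in stretched, so the lower share is not by itself a difference in Slfn9.

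**Figure D2:**
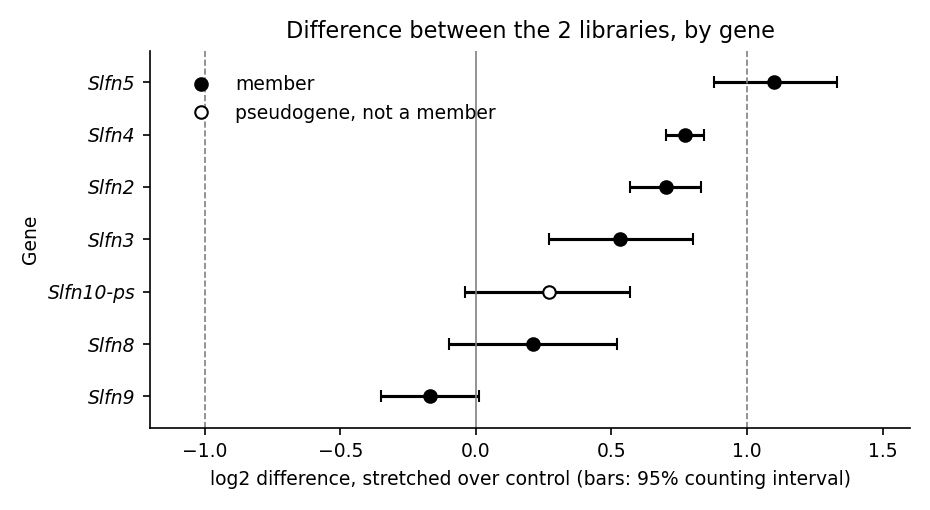
The log2 difference, stretched over control, of each Schlafen gene with at least 20 counts; bars are 95% counting intervals and dashed lines mark 2-fold. Slfn5 lies past 2-fold at 1.10, Slfn4, Slfn2 and Slfn3 lie between 0.53 and 0.77, and the intervals of Slfn8, Slfn9 and the pseudogene Slfn10-ps cross 0.

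The members did not share a common difference. Of the 15 pairs among the 6 genes, 11 differed by more than their counting error (95% intervals on the log scale, not adjusted for the number of pairs) and 4 did not. Slfn5 exceeded every other member, by 0.33 (0.10 to 0.56) over Slfn4 and by 1.27 (0.99 to 1.55) over Slfn9 on the log2 scale. Slfn4 and Slfn2 differed by 0.07 (-0.07 to 0.22), and the intervals for Slfn4 against Slfn3, Slfn2 against Slfn3 and Slfn3 against Slfn8 also held 0. The neighbours Slfn8 and Slfn9 differed by 0.38 (0.03 to 0.73), an interval that only just excluded 0. Their values lay closer together by the FPKM ratio with nothing added, an alternative chosen after seeing the data. By that ratio the difference was 0.13 for Slfn8 and -0.13 for Slfn9. The intervals of the pairs compare 2 libraries and not 2 conditions.

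The order of levels by FPKM was nearly the same in both libraries. In stretched it ran Slfn4, Slfn2, Slfn3, Slfn9, Slfn5, Slfn8 and Slfn1. In control it ran Slfn4, Slfn2, Slfn3, Slfn9, Slfn8, Slfn5 and Slfn1. The counting intervals of Slfn9 (5.60 to 6.72 FPKM) and Slfn5 (5.50 to 6.57) overlapped in stretched, and Slfn3 (8.87 to 11.3) lay above both. In control, Slfn3 (5.86 to 7.73) overlapped with Slfn9 (6.18 to 7.28), and Slfn8 (2.66 to 3.62) with Slfn5 (2.36 to 3.02). Slfn5 thus lay beside Slfn9 in stretched and beside Slfn8 in control.

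**Figure D3:**
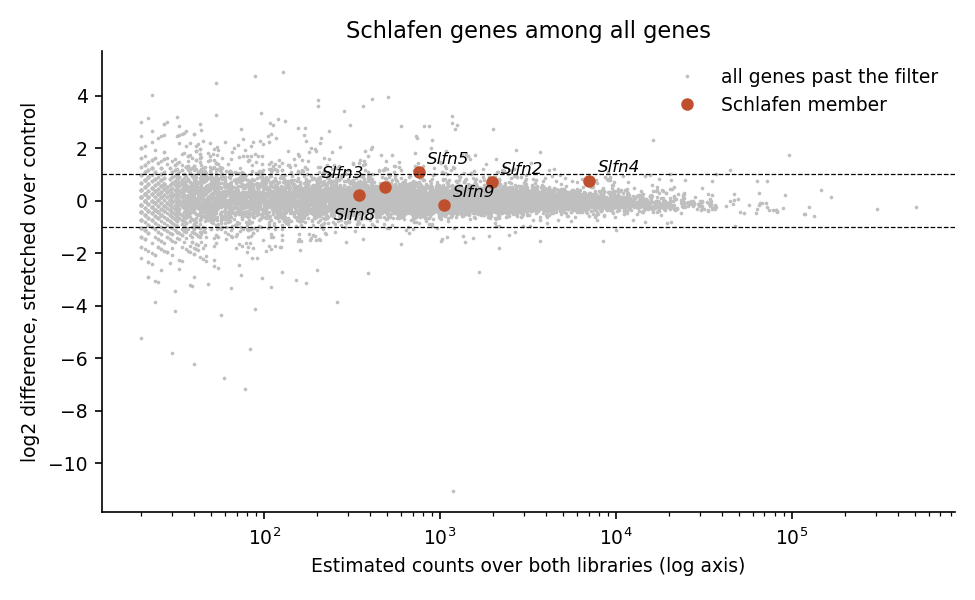
The log2 difference, stretched over control, against the summed estimated counts of both libraries (log axis) for the 12772 genes with at least 20 counts (grey) and the 6 Schlafen genes among them (red). Dashed lines mark 2-fold. Of all plotted genes, 97.2% lay below Slfn5, 94.5% below Slfn4, 93.7% below Slfn2, 90.7% below Slfn3, 74.7% below Slfn8 and 26.4% below Slfn9.

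Transcripts of the same gene were not alike in the deposited estimates. For Slfn4, the 3958-base transcript had 1922 counts in stretched and 808 in control, a log2 difference of 1.38 (1.26 to 1.5). The 3703-base transcript had 2022 counts in stretched and 1701 in control, a difference of 0.37 (0.28 to 0.47). The longer transcript accordingly held 44.5% of the gene's counts in stretched (43.0% to 46.0%) and 29.3% in control (27.6% to 31.0%). Both carry the same coding length of 1806 bases, and of the 50-base words of the longer one only 3.81% are in no other Slfn4 transcript, against 1.48% for the shorter, so the split rests on few bases. The third, a transcript of 1830 bases, had a difference of 0.72 (0.48 to 0.95).

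Slfn8 also held a transcript that went the other way. Its 2128-base transcript had 5 counts in stretched and 26 in control, a log2 difference of -2.14 (-3.99 to -0.85), and 3.8% of its words are in no other Slfn8 transcript. The 2 other Slfn8 transcripts with counts had 122 and 52 counts in stretched, against 104 and 39 in control, with intervals that held 0. Of the words of these 2, 0% and 1.19% are in no other Slfn8 transcript, so the split of Slfn8 rests on very few bases. For Slfn5, the 5979-base transcript took 96.4% of the gene's counts in stretched (94.4% to 97.7%) and 97.7% in control (95.0% to 98.9%), so its difference of 1.08 (0.86 to 1.31) was close to that of the gene. Slfn9 was likewise carried by 1 transcript, of 5769 bases, with 94.5% of counts in stretched (92.1% to 96.2%) and 94.8% in control (92.7% to 96.4%). For Slfn3, the 1816-base transcript had a difference of 0.44 (0.10 to 0.78) and the 1966-base one 0.65 (0.20 to 1.12), and Slfn2 and Slfn1 had 1 transcript each.

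**Figure D4:**
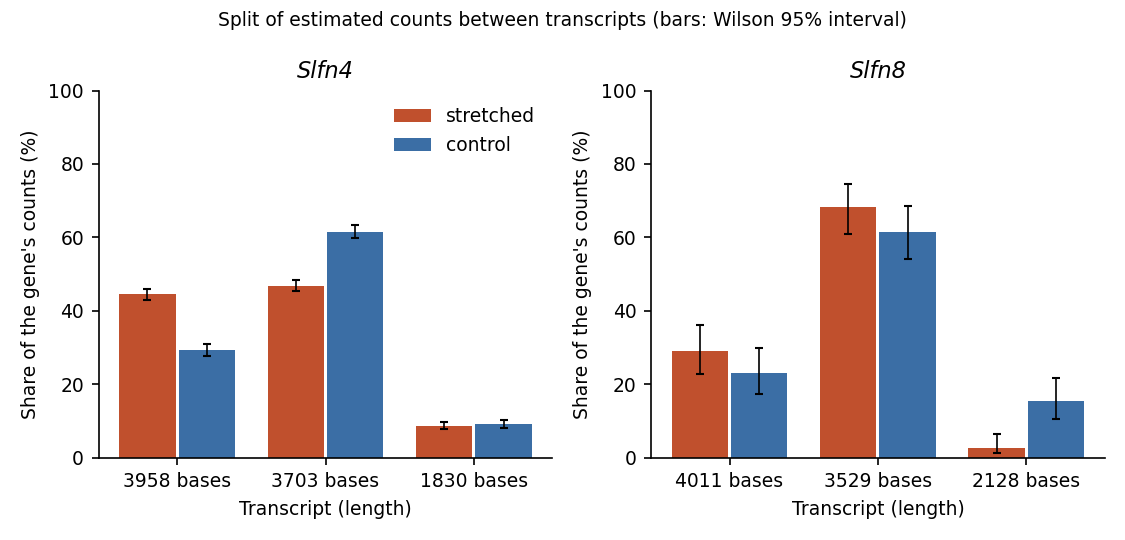
Share of each gene's estimated counts by transcript, named by its length in bases, for Slfn4 (left panel) and Slfn8 (right panel); within each pair the stretched library is the left bar and control the right, with Wilson 95% intervals. The 3958-base transcript of Slfn4 holds 44.5% in stretched and 29.3% in control, and the 2128-base transcript of Slfn8 holds 2.79% in stretched and 15.4% in control.

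Schlafen genes arose by tandem duplication, and parts of their transcripts are identical. Of the 50-base words of each gene's GENCODE M21 transcripts, the share also found in another gene was 0.606% for Slfn1, 4.27% for Slfn2, 11.1% for Slfn5, 11.3% for Slfn4, 11.9% for Slfn9, 14.6% for Slfn8 and 16.0% for Slfn3. Slfn8 shared most with the pseudogene Slfn10-ps (10.1%) and with Slfn9 (9.30%). Slfn3 shared 7.39% with Slfn4 and 6.45% with Gm11427, a transcribed pseudogene that lies near it. In Slfn5 most of the shared words, 7.38%, belong to Slfn5os on the opposite strand, which had 0 counts in both libraries. How the authors' counting divided reads from shared stretches was not stated in the labels or headers, so the members' values are uncertain, and a member's own share does not limit what it may receive from a more abundant gene. Of the words of Slfn4, the most abundant member, 6.28% are also in Slfn3, whose counts are far fewer, so the level and the difference of Slfn3 are the more uncertain for it. No member overlapped another gene that had counts on either strand.

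Of the other Schlafen and Schlafen-like genes, Slfn10-ps had 194 counts in stretched and 176 in control, a log2 difference of 0.27 (-0.04 to 0.57). Slfn14, known in human for a role in platelets, had 0 counts in stretched and 2 in control, and Slfnl1 had 0 in stretched and 1 in control. A count of 0 allows up to 3 counts, or 0.223 CPM in stretched.

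Genes around the cluster met the size rule about as often as all genes did. Their median difference was higher, however, and their counting intervals lay above 0 more often than below 0. Within 500 kb of the outermost members lay 60 other genes, 20 of them with at least 20 counts. The 20 include the pseudogenes Slfn10-ps and Gm11427, which share sequence with members. Over the 20 genes the median log2 difference was 0.18, against -0.0014 for all genes. The size rule was met by 1 of the 20, the chemokine gene Ccl5, with 116 counts in stretched and 15 in control (3.04, interval 2.30 to 3.96), and 0 were lower, beside 5.06% of all genes in either direction. On the outer side of Slfn5 the nearest gene with at least 20 counts, the ribosome assembly gene Nle1, had 618 counts in stretched and 679 in control (-0.01, interval -0.17 to 0.15). Past the other end of the cluster, the nearest such gene, the noncoding gene AI662270, had 0.08 (-0.02 to 0.18). Its model overlaps the start of Gm11427 on the same strand, and the counts of these overlapping genes are uncertain. Gm11427 had 1060 counts in stretched and 767 in control (0.59, interval 0.46 to 0.73), close to the difference of Slfn3. It holds 6.45% of the 50-base words of Slfn3 and 4.01% of those of Slfn4. Whether reads from shared stretches bear on its value was not tested. Below the size rule, intervals also lay above 0 for Ccl3 (0.92, interval 0.86 to 0.98) and Ccl4 (0.92, interval 0.81 to 1.03). The same held for Zfp830 at 0.67, Ccl9 at 0.41, Ap2b1 at 0.24 and Lig3 at 0.12. Taf15, at -0.25 (-0.35 to -0.15), was the only one of the 20 with an interval below 0. Of all genes with at least 20 counts, 22.9% had intervals above 0 and 21.9% below 0, shares not matched for depth. Of the neighbours named here, all but Ccl5 were chosen after their values were seen.

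**Figure D5:**
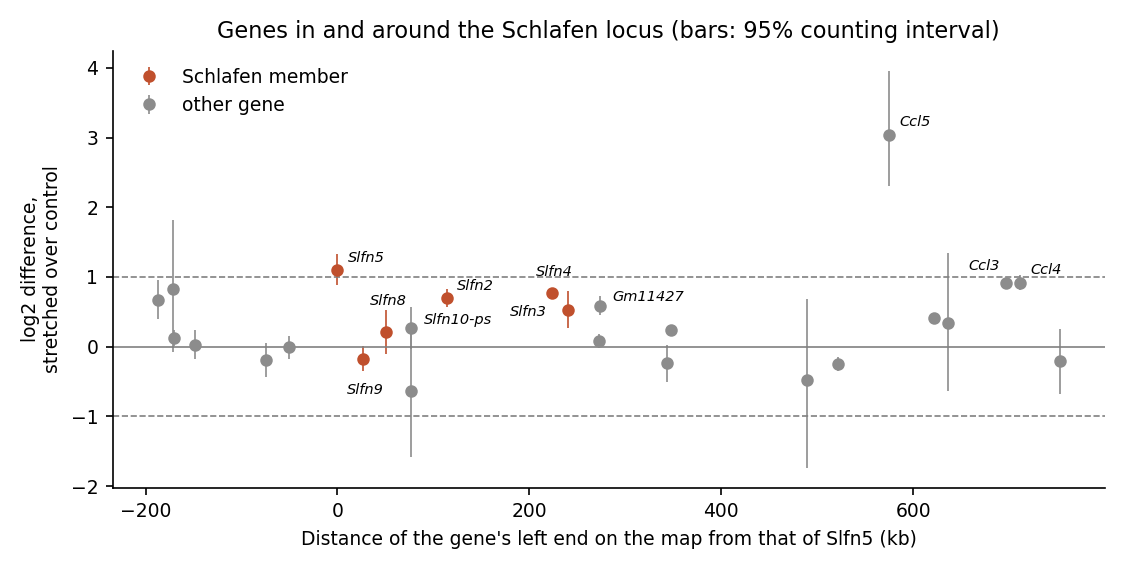
The log2 difference, stretched over control, of genes with at least 20 counts by distance of the gene's left end on the map from that of Slfn5, in kb; red points are Schlafen members and grey points other genes, with 95% counting intervals, and dashed lines mark 2-fold. The minus-strand genes Slfn9 and Slfn8 lie near 0 between Slfn5 and Slfn2, and Ccl5 at 3.04 is the only grey point with an interval wholly above 2-fold.

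Of 17 interferon-stimulated genes outside the family, listed with earlier results of these data known, 15 met the size rule on the higher side, where 3.12% of all genes did, and 0 on the lower. Their median log2 difference was 2.36, against -0.0014 for all genes. The 4 with the most counts were Bst2, which tethers budding virus, at 1.21 (1.09 to 1.33), Ifi44 at 2.72 (2.54 to 2.90), the oligoadenylate synthetase gene Oas1a at 1.12 (0.99 to 1.25) and the ISG15 protease gene Usp18 at 2.89 (2.65 to 3.14). The Slfn5 interval (0.88 to 1.33) overlapped with those of Oas1a and Bst2. Slfn4 and Slfn2 had differences below those of all 17 genes, of which Mx2 was lowest at 0.88 (0.63 to 1.14), an interval that overlaps with those of Slfn4 and Slfn2. Mx2 was named after its value was seen.

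Of 13 genes for interferon receptors, kinases and factors, 2 met the rule on the higher side and 0 on the lower, with a median of 0.17. Irf7, the factor that amplifies interferon transcription, had 1044 counts in stretched and 120 in control (3.24, interval 2.97 to 3.53). Stat2, a subunit of the complex that binds the interferon-stimulated element, had 778 counts in stretched and 380 in control (1.16, interval 0.98 to 1.34). Irf9, another subunit of that complex, named for that role after its value was seen, had 851 counts in stretched and 532 in control (0.80, interval 0.65 to 0.96). Of 7 interferon genes, 6 had 0 counts in both libraries and Ifng had 0 in stretched and 1 in control, so their transcripts were not detectable at this depth.

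Genes of the processes that Schlafen proteins are known for met the size rule about as often as all genes, of which 5.06% did. Of 6 genes for transfer RNA cleavage and protection, 0 met the size rule, and the median was -0.04. Ang, the angiogenin gene, had 62 counts in stretched and 81 in control (-0.26, interval -0.76 to 0.23). Its inhibitor gene Rnh1 had 3563 counts in stretched and 3312 in control (0.23, interval 0.16 to 0.30). Both were named after their values were seen. Of 12 genes for quiescence and cycle entry, 1 was higher and 0 were lower, with a median of 0.05. The higher gene was Myc, a driver of growth, with 78 counts in stretched and 17 in control (2.29, interval 1.55 to 3.17). The list pools genes of quiescence with genes of cycle entry, so its median can hide opposite differences. Of the first kind, Btg2 was at 0.72, Klf2 at 0.37, Cdkn1b at 0.34, Foxo3 at 0.08, Tob1 at 0.03, Btg1 at -0.04 and Foxo1 at -0.14. Beside Myc, Ccnd3 was at 0.32, Mki67 at -0.21, Ccnd1 at -0.30 and Ccnd2 at -0.46. All but Myc were named after their values were seen.

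With 2 libraries a gene has a single difference, so likeness between genes means only that these differences are close. Among 1532 named genes outside the family with total counts within 2-fold of Slfn4, the nearest were Fndc3b at 0.77, Osbpl8 at 0.78 and Akr1b3 at 0.79. Fndc3b had 2789 counts in stretched and 1787 in control.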

How the data were processed

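Polyadenylated RNA from 1 stretched and 1 control culture of cells labelled RAW246.7 was sequenced from dUTP libraries, per the labels' protocols. The deposited tables give estimated counts and FPKM for 55414 genes and 142438 transcripts, and the authors' log2 fold changes with p-values, per the file headers. StringTie and GRCm39 are named in the submitters' processing notes; the sources used here do not give aligner, versions or strand setting. From the values, each deposited transcript count is an estimate from coverage, rounded up (99.98% within 0.05 in each library). The authors' p-values were all within 0.05 (log10) of an edgeR exact test with an assumed coefficient of 0.1.

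Library totals were scaled with TMM factors (edgeR 4.0.16, R 4.3.3), with a prior of 0.5 counts and exact conditional binomial intervals (SciPy 1.17.1), which, like the floor of 3 counts, cover counting error only. PCR copies are not independent molecules. Pairs of members were compared by a normal approximation on the log scale. The ratio code was tested on simulated data. The rule for named genes took all members, the other Schlafen genes, up to 4 genes past the size rule per list and around the locus, and the 3 most like Slfn4; genes named outside it are marked in the text. Members and lists were chosen with earlier results of these data known. Names came from the deposited table and, for genes without one, by identifier from a GRCm38 table. Of the deposited tables, 5 that repeat values or hold mapping totals were not used. Alternatives changed scaling, prior, filter, rounding and gene model, and used FPKM.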

Additional observations from a re-analysis of the deposited data

How the results depend on the processing

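Scaling by library totals or by DESeq2 1.42.0 size factors, a prior of 5 counts, counts rebuilt without rounding up and protein-coding transcripts alone kept the sign of all 6 members' differences and left 1 member, Slfn5, past the size rule; 2 alternatives, the FPKM ratio with nothing added and the transcript with the most counts, were chosen after seeing the data and did so too. Of 82 alternative values, 78 stayed within the counting interval of the main value or, for counts of genes, within 1.5 times, 4 moved and 0 reversed. With log2(FPKM + 1), 0 members met the size rule, because 1 added to a level of 2.67 FPKM lowers the Slfn5 difference to 0.93; across all alternatives Slfn5 ran between 0.93 and 1.17. With its transcript of most counts alone, Slfn4 had a difference of 0.37 in place of 0.77. With a filter of 100 counts, 182 genes in all were higher and 66 lower, since fewer genes were counted; with no filter, they were 538 and 370. Slfn2 ran between 0.66 and 0.74, Slfn3 between 0.44 and 0.57, Slfn8 between 0.10 and 0.35 and Slfn9 between -0.21 and -0.11. Counts for the gene lists and the locus were the same under both scalings. No paired analysis was possible because each group had 1 library, and no replicate could be left out. Depth limits Slfn1, Slfn14 and Slfnl1, which had at most 2 counts in a library.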
